A study of Mus musculus with 6 samples.

Results

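The 7 genes described here encode G protein-coupled receptors that guide B cells to their places in spleen and gut: Cxcr4, Cxcr5, Ccr7, Ccr6, Cxcr3 and Ccr9, which bind chemokines, and Gpr183 (EBI2), which binds oxysterols. They were chosen by gene symbol, and all 7 were found among the 35275 genes that the authors list with FPKM values, that is, reads scaled to gene length and to the size of the library. The libraries were made from B cells of the spleens of C57BL/6 mice 6 to 8 weeks old, wild type (WT) or of the genotype CD40LΔ5, named for CD40 ligand, the signal by which T cells help B cells. The labels do not say what the Δ5 allele changes. All mice, those of the WT group included, had been injected with sheep red blood cells (SRBC), an antigen that needs T cell help, and spleens were taken on day 8. Each genotype has 3 libraries, and the labels do not say whether each came from its own animal, so the tests measure the spread between these libraries. B cells were isolated as a whole with a magnetic pan-B cell kit, so follicular, marginal zone and germinal centre B cells and any plasma cells were measured together, and in such bulk RNA fewer cells of a kind and less RNA per cell cannot be told apart.

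CXCR5 follows CXCL13 into the follicle. CXCR4 follows CXCL12 and holds germinal centre B cells in the dark zone. CCR7 draws activated B cells to CCL19 and CCL21 at the border with the T cell zone, and GPR183 follows the oxysterol 7α,25-dihydroxycholesterol, made by CH25H and CYP7B1, to the outer follicle. GPR183 is switched off when B cells enter the germinal centre. CCR6 is the receptor of CCL20 and is found on mature follicular and memory B cells. CXCR3, the receptor of CXCL9, CXCL10 and CXCL11, is found on T cells, natural killer cells and part of the memory B and plasma cells. CCR9, the receptor of CCL25, guides lymphocytes to the small intestine and also marks plasmacytoid dendritic cells.

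The labels and the authors' deposited table of group means do not place the libraries alike. Its MUT column averages WT replicates 1 and 2 with CD40LΔ5 replicate 2, as labelled, and its WT column averages WT replicate 3 with CD40LΔ5 replicates 1 and 3 (to within 3.33e-08 FPKM), so 2 of the 6 libraries stand in the same group in both. Each receptor is therefore compared by the labels and by the table, and a library is always called by its label. Both comparisons use the same 6 libraries. Cd40lg itself (chromosome X, 57212143 to 57224042, plus strand) was at 0.118 to 0.533 FPKM, from 4 to 17 reads per library. Its ranges were 0.118 to 0.483 FPKM for CD40LΔ5 and 0.203 to 0.533 FPKM for WT by the labels, and 0.428 to 0.533 FPKM for MUT and 0.118 to 0.203 FPKM for WT by the table. Of all tested genes 12.1% were likewise higher in MUT without overlap. So were 5 of 7 tested T cell markers, with the other 2 lower. The part of T cells in the Cd40lg values was not tested. The defining B cell genes were high in every library (7 of 7 tested, summed level 4448 to 5176 FPKM), with Cd79a and Cd79b, the signalling chains of the B cell receptor, leading. The libraries labelled WT replicate 1 and CD40LΔ5 replicate 2 stood apart: 10 germinal centre B cell genes summed to 33.3 and 53.2 FPKM in them and to 104 to 192 FPKM in the other 4. Reads on genes ranged from 24320080 to 27866611 per library.

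Stretches of DNA just before the starts of Cxcr4 and Cxcr3 are shown because these were the tested receptors whose libraries separated in one of the groupings. Both are from RefSeq (GRCm38.p6), on the minus strand and written 5′ to 3′. The stretch of Cxcr4 is chr1:128592300-128592449, the 150 bases before the start. That of Cxcr3 is chrX:101734270-101734397, 128 bases that end 123 bases before the RefSeq start, since the bases between are exonic in GENCODE. Capitals mark the motifs searched on both strands.
Cxcr4: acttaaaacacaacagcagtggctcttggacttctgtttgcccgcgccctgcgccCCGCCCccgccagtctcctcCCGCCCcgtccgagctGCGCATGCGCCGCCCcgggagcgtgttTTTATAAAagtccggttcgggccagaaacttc
Cxcr3: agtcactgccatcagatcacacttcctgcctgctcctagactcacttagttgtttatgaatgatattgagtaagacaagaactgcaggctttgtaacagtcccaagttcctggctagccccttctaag
The Cxcr4 stretch holds a GC-rich run with 3 copies of GGGCGG (read as CCGCCC), the palindromic NRF1 motif at 59 bases before the start, which overlaps the last of these copies, and TATAAA at 30 bases before the start, with an overlapping copy on the other strand. Of 32851 windows of 300 bases in the table, 35.7% hold GGGCGG, 0.971% the NRF1 motif and 13.6% TATAAA. The Cxcr3 stretch shown holds none of the motifs, and the E-box CAGGTG (20.2% of windows) lies nearer to its start, at 116 bases. The same E-box stands 85 bases before the start in the window of Ccr9. The κB motif (1.47% of windows), GTAAACA (FOXO, 3.65%) and AGGTGTGA (T-box, 1.28%) were in none of the 6 windows of the 5 receptors matched. Cxcr5 and Ccr7 had no entry.

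Per gene length, the receptors of the follicle and its zones were the most abundant, and those of inflamed tissue and gut the lowest. The medians over the 6 libraries were 143 FPKM for Cxcr5, 120 FPKM for Cxcr4, 71.6 FPKM for Ccr7, 60.0 FPKM for Ccr6, 29.6 FPKM for Gpr183, 3.80 FPKM for Cxcr3 and 0.657 FPKM for Ccr9. Cxcr5 and Cxcr4 overlapped in their ranges, with Cxcr5 higher in 4 of 6 libraries, and so did Ccr7 and Ccr6, with Ccr7 higher in 5 of 6. The other neighbours in this order did not overlap: Gpr183 was 7.78-fold above Cxcr3 by the medians and Cxcr3 5.79-fold above Ccr9. Ccr9 rested on 45 to 78 reads per library and Cxcr3 on 144 to 310, while each of the other 5 had at least 1947. Relative to its mean, the spread over the 6 libraries (SD) was 8.50% for Ccr6, 8.56% for Gpr183, 10.4% for Cxcr5, 15.8% for Ccr7, 20.9% for Cxcr4 and 28.5% for Cxcr3, against a counting error of 0.983% (Cxcr5) to 7.13% (Cxcr3). For Ccr9 the spread was 22.4% and the counting error 12.1%.

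**Figure D1:**
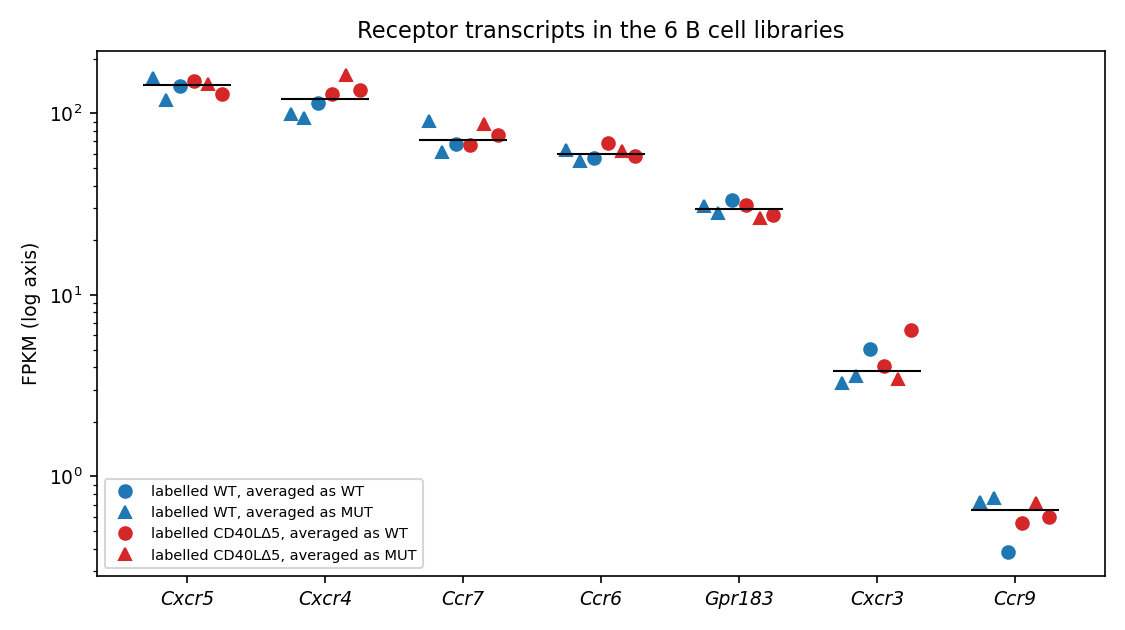
FPKM on a log axis for each receptor, with 1 point per library and a line at the median of 6. Colour gives the label and shape the group in the authors' table of means. The levels run from a median of 143 FPKM for Cxcr5 to 0.657 FPKM for Ccr9, and the red points of Cxcr4 lie above its blue ones.

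Cxcr4 (ENSMUSG00000045382, chromosome 1, 128588199 to 128592293, minus strand) measured 99.6, 93.6 and 113 FPKM in WT replicates 1, 2 and 3 and 127, 163 and 134 FPKM in CD40LΔ5 replicates 1, 2 and 3. By the labels the groups did not overlap, and CD40LΔ5 replicate 2 was the highest library. The log2 difference was 0.46 ± 0.13 (SE) on the log2(FPKM + 1) scale, with a limma p of 0.00992 and an adjusted p of 0.999993, so it did not pass. By the labels 0 of 11252 tested genes passed in limma (0%; 139 genes, 1.24%, had an unadjusted p under 0.05). Of the 6 receptors tested Cxcr4 was the 1 with such a p and the 1 whose groups did not overlap. Groups did not overlap for 4.29% of tested genes, 2.98% with higher and 1.32% with lower values in CD40LΔ5. Cxcr4 stayed higher with any single library left out, by 0.35 to 0.54 on the log2 scale. Germinal centre and neutrophil genes had higher values in CD40LΔ5 for 10 of 10 and 6 of 6 markers, where 55.5% of all tested genes did. Plasma cell genes had lower values for 5 of 5, monocyte and macrophage genes for 7 of 7 and T cell genes for 6 of 7. The summed levels of each of these lists overlapped between the label groups. In CD40LΔ5 replicate 2, with the most Cxcr4, germinal centre, neutrophil and plasma cell genes summed to 53.2, 76.4 and 718 FPKM. The part of these cells in the Cxcr4 values was not tested. By the table sets the groups overlapped, at 119 ± 38.6 FPKM for MUT and 125 ± 10.3 FPKM for WT (SD, n = 3), with a log2 difference of -0.11 ± 0.21 (limma adjusted p = 0.832). MUT there holds both the lowest library (WT replicate 2) and the highest (CD40LΔ5 replicate 2).

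Cxcr5 (ENSMUSG00000047880, chromosome 9, 44511788 to 44556391, minus strand) varied less, at 157, 118 and 141 FPKM in WT replicates 1 to 3 and 151, 144 and 127 FPKM in CD40LΔ5 replicates 1 to 3. The highest and the lowest value both lay in libraries labelled WT. Its log2 difference was 0.03 with a 95% interval of -0.29 to 0.34 by the labels and -0.00 with an interval of -0.30 to 0.29 by the table (limma adjusted p = 0.999993 and 0.994). The ratio of Cxcr4 to Cxcr5 within each library compares these transcripts over all the B cells together and does not measure dark zone cells. It was 0.634, 0.791 and 0.806 in WT replicates 1 to 3 and 0.843, 1.13 and 1.05 in CD40LΔ5 replicates 1 to 3. By the table sets this ratio overlapped, at 0.634 to 1.13 for MUT and 0.806 to 1.05 for WT. The ratios of Ccr7 to Cxcr5 (0.445 to 0.603) and of Gpr183 to Cxcr5 (0.185 to 0.239) overlapped between the groups in both comparisons. Cxcr4 exceeded Cxcr5 in CD40LΔ5 replicates 2 and 3 and in no other library.

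Ccr7 (ENSMUSG00000037944, chromosome 11, 99144196 to 99155077, minus strand) was highest in the libraries that stood apart. It measured 90.6, 61.3 and 67.6 FPKM in WT replicates 1 to 3 and 66.9, 87.1 and 75.5 FPKM in CD40LΔ5 replicates 1 to 3. WT replicate 1 and CD40LΔ5 replicate 2, the 2 highest, were also those with the lowest summed level of germinal centre genes. The same libraries had the lowest plasma cell sums (902 and 718 FPKM) and the lowest shares of reads on immunoglobulin genes (2.83% and 2.20%). The part of germinal centre cells, plasma cells and immunoglobulin reads in the Ccr7 values was not tested. The groups overlapped in both comparisons. The log2 difference was 0.07 ± 0.17 by the labels (limma adjusted p = 0.999993) and 0.16 ± 0.15 by the table (adjusted p = 0.630). The value by the table ran from 0.063 without WT replicate 1 to 0.34 without WT replicate 2 (limma adjusted p = 0.208 in the latter fit).

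Gpr183 (ENSMUSG00000051212, chromosome 14, 121952331 to 121965193, minus strand) was among the steadiest of the receptors. It measured 30.8, 28.3 and 33.3 FPKM in WT replicates 1 to 3 and 31.2, 26.6 and 27.7 FPKM in CD40LΔ5 replicates 1 to 3. The difference was -0.11 (95% interval -0.34 to 0.13) by the labels and -0.10 (-0.33 to 0.13) by the table, with limma adjusted p of 0.999993 and 0.644. Gpr183 lies within Ubac2, a gene of the plus strand at 29.9 to 36.5 FPKM, and the library kit does not mark the strand, so reads where these genes share bases cannot be told apart.

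Ccr6 (ENSMUSG00000040899, chromosome 17, 8236043 to 8257127, plus strand) stayed within 54.4 to 68.6 FPKM. It measured 63.0, 54.4 and 56.6 FPKM in WT replicates 1 to 3 and 68.6, 61.7 and 58.2 FPKM in CD40LΔ5 replicates 1 to 3. Its highest value was in CD40LΔ5 replicate 1 and its lowest in WT replicate 2, and the groups overlapped. The log2 difference was 0.11 (95% interval -0.12 to 0.35) by the labels and -0.03 (-0.28 to 0.21) by the table (limma adjusted p = 0.999993 and 0.911).

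Cxcr3 (ENSMUSG00000050232, chromosome X, 101731535 to 101734269, minus strand) separated by the table and not by the labels. It measured 3.26, 3.56 and 5.00 FPKM in WT replicates 1 to 3 and 4.04, 3.44 and 6.43 FPKM in CD40LΔ5 replicates 1 to 3. In the MUT set of the table every library was lower, at 3.42 ± 0.154 against 5.16 ± 1.20 FPKM (SD, n = 3). The log2 difference was -0.46 ± 0.15 (SE), with a limma p of 0.0164 and an adjusted p of 0.352, which did not pass. In that comparison 3 of the tested genes passed (0.0267%), and 13.0% had an unadjusted p under 0.05, as 1 of 6 receptors did. Groups did not overlap for 16.9% of tested genes, 4.79% with lower values in MUT. With any single library left out, the difference stayed between -0.60 and -0.32. By the labels it was 0.17 ± 0.22 (adjusted p = 0.999993), and without CD40LΔ5 replicate 3, the highest library, it turned to -0.05.

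Genes of other cells that carry CXCR3 were unequal between the table sets only in part. All 5 plasma cell markers were lower in MUT, 0 of them without overlap, and their summed levels overlapped (718 to 3842 against 1547 to 3805 FPKM). All 5 tested of the 6 natural killer cell markers were higher, where 62.0% of all tested genes were. Of these 5 markers 2 did not overlap, and the list summed to 40.0 to 50.1 against 19.1 to 30.2 FPKM. Of 8 T cell markers 7 were tested and 5 were higher, each of the 5 without overlap, as were 12.1% of all tested genes. The summed level of the T cell list overlapped, at 24.6 to 30.9 against 23.5 to 26.0 FPKM. All 10 germinal centre markers and all 6 tested neutrophil markers were lower in MUT, with median log2 differences of -1.18 and -1.61. None of these markers was at 0 in all libraries, and none passed the limma test over all genes. Cxcr3 and the plasma cell markers were both high in CD40LΔ5 replicate 3 and WT replicate 3 and low in WT replicate 1 and CD40LΔ5 replicate 2. WT replicate 2 had the highest plasma cell sum, 3842 FPKM, with Cxcr3 at 3.56 FPKM. Neutrophil markers too were highest in CD40LΔ5 replicate 3 and WT replicate 3, at 546 and 299 FPKM against 42.2 to 76.4 FPKM in the other libraries. The part of these cells in the Cxcr3 values was not tested.

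**Figure D2:**
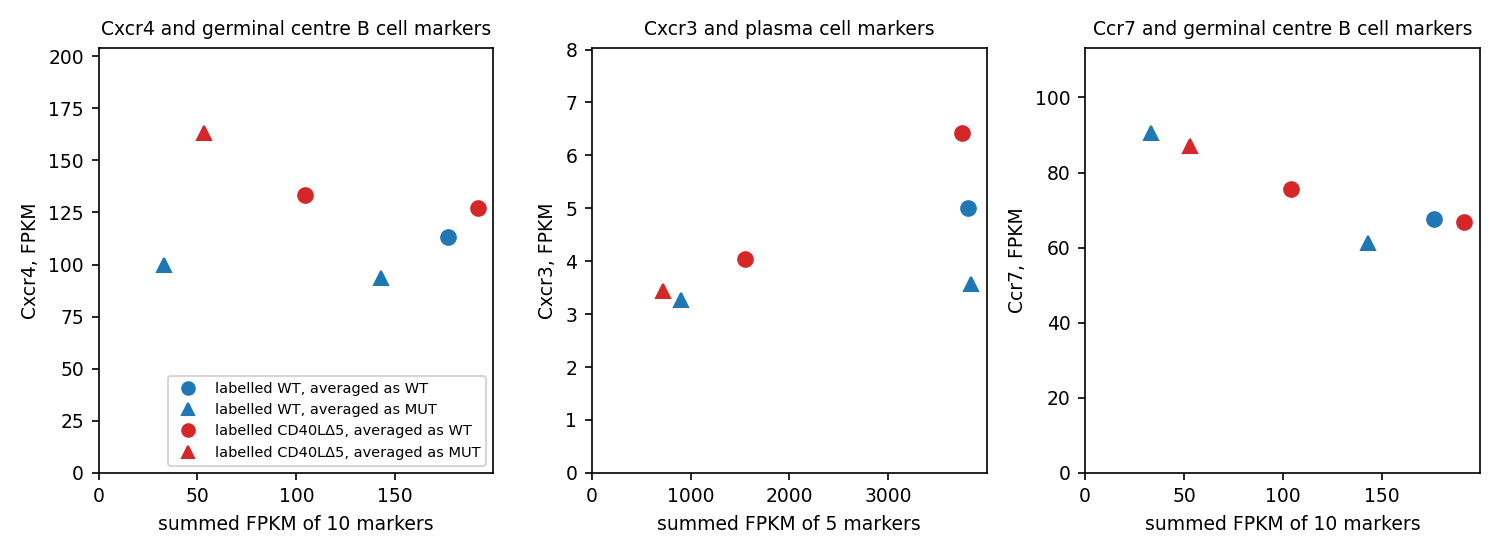
FPKM of Cxcr4, Cxcr3 and Ccr7 (vertical axes, from 0) against the summed FPKM of 10 germinal centre or 5 plasma cell markers, with 1 point per library, coloured by label and shaped by the group in the table of means. Ccr7 is highest (90.6 and 87.1 FPKM) at the lowest germinal centre sums, and for Cxcr4 those same libraries measure 99.6 and 163 FPKM.

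Ccr9 (ENSMUSG00000029530, chromosome 9, 123678439 to 123783457, plus strand) lay under the mean of 1 FPKM required for the test. It measured 0.721, 0.757 and 0.385 FPKM in WT replicates 1 to 3 and 0.556, 0.712 and 0.601 FPKM in CD40LΔ5 replicates 1 to 3. Means by label were 0.623 ± 0.0807 FPKM for CD40LΔ5 and 0.621 ± 0.205 FPKM for WT (SD, n = 3; two-sided exact permutation test, p = 1). In the MUT set all 3 libraries were higher, at 0.730 ± 0.0235 against 0.514 ± 0.114 FPKM, and the two-sided exact permutation test gave 0.1, the smallest that 3 against 3 allows. Of all tested genes, 12.1% were higher in MUT without overlap. As listed, Ccr9 overlaps 7 other genes, among them Lztfl1 of the minus strand at 1.31 to 2.17 FPKM. Siglech, a marker of plasmacytoid dendritic cells, was at 0.488 to 5.18 FPKM, and 4 of 6 tested markers of these cells were higher in MUT (summed level 886 to 1159 against 767 to 882 FPKM, most of it from Ly6d, which B cells express too). Their part in the Ccr9 values was not tested.

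Across the receptors as a set, 5 of the 6 tested had higher values in CD40LΔ5 by the labels, where 55.5% of all tested genes did, with a median log2 difference of 0.09 against 0.01 over all tested genes. By the table sets 1 of 6 was higher in MUT, where 62.0% of all tested genes were, with a median of -0.07 against 0.05. None passed in either comparison. In WT replicate 3 and CD40LΔ5 replicate 2, the libraries that the labels and the table place alike, Cxcr4 measured 113 and 163 FPKM, Ccr7 67.6 and 87.1 FPKM, Gpr183 33.3 and 26.6 FPKM and Cxcr3 5.00 and 3.44 FPKM. Cxcr5 (141 and 144 FPKM) and Ccr6 (56.6 and 61.7 FPKM) were closer. With 1 library on each side these pairs have no test, and the germinal centre sums of the 2 libraries were 177 and 53.2 FPKM.

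**Figure D3:**
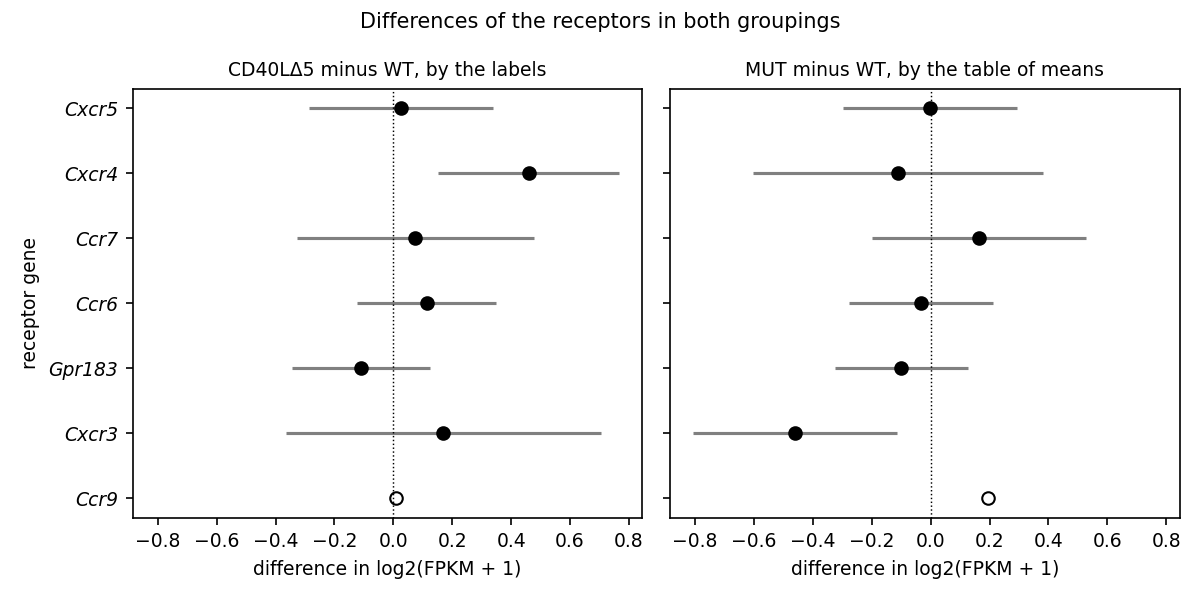
Difference in log2(FPKM + 1) for each receptor by the labels (left, CD40LΔ5 minus WT) and by the authors' table of means (right, MUT minus WT), with 95% intervals from limma that are not adjusted for the number of genes. The open points for Ccr9 have no interval, and the intervals of Cxcr4 on the left (0.15 to 0.77) and Cxcr3 on the right (-0.81 to -0.11) do not reach 0.

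The ligands of these receptors, chemokines made chiefly by stromal, epithelial and myeloid cells, were low. Of 9 ligand genes 1 reached the level for testing, namely Ccl25, the ligand of CCR9. It measured 2.19, 2.67 and 1.08 FPKM in WT replicates 1 to 3 and 1.83, 3.30 and 1.78 FPKM in CD40LΔ5 replicates 1 to 3. All 3 of the MUT set lay above the other libraries, as for 12.1% of all tested genes. The log2 difference was 0.54 by the table (limma adjusted p = 0.352) and 0.16 by the labels (adjusted p = 0.999993). Cxcl12, the ligand of CXCR4, was at 0.421 to 1.13 FPKM and Cxcl13, the ligand of CXCR5, at 0.309 to 1.16 FPKM, the latter from 10 to 33 reads. Ccl20 and Cxcl11 were listed at 0 in every library.

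Of the enzymes that make and break the ligand of GPR183, Ch25h was listed at 0 in all 6 libraries and Cyp7b1 in 5 of 6. Hsd3b7, which degrades the ligand, was at 0.574 to 0.887 FPKM. Cyp27a1, a sterol hydroxylase, was the 1 gene of 5 tested. It measured 7.04, 7.08 and 4.27 FPKM in WT replicates 1 to 3 and 5.72, 7.73 and 3.95 FPKM in CD40LΔ5 replicates 1 to 3. By the table its groups did not overlap, at 7.28 ± 0.384 against 4.65 ± 0.944 FPKM (SD, n = 3). Of all tested genes, 12.1% were likewise higher in MUT without overlap. The log2 difference was 0.56 ± 0.13 (SE; limma adjusted p = 0.343), and by the labels it was -0.08 ± 0.25 (adjusted p = 0.999993). All 7 monocyte and macrophage markers were also higher in MUT, where 62.0% of all tested genes were. Their summed level was 99.2 to 241 against 66.0 to 104 FPKM, and in CD40LΔ5 replicate 2, with the most Cyp27a1, it was 99.2 FPKM, under the 104 FPKM of CD40LΔ5 replicate 3, with the least. Their part in the Cyp27a1 values was not tested.

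Atypical receptors, most of which take up chemokines without G protein signalling, were low. Of 5 in the list 4 were tested, and Ackr1 was at 0 to 0.355 FPKM. By the labels all 4 had lower values in CD40LΔ5 (median log2 difference -0.21) and by the table sets 3 of 4 had higher values in MUT (median 0.19), with none passing. Ackr2, a scavenger of inflammatory chemokines, led with 4.86 to 8.51 FPKM. Ackr3, the scavenger of CXCL12, measured 3.08, 1.78 and 1.04 FPKM in WT replicates 1 to 3 and 1.31, 1.75 and 1.04 FPKM in CD40LΔ5 replicates 1 to 3. The MUT set of Ackr3 lay above the other libraries, as for 12.1% of all tested genes. The log2 difference was 0.57 by the table (limma adjusted p = 0.352) and -0.28 by the labels (adjusted p = 0.999993).

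Of 12 further chemokine receptors 5 were tested. Their values were all lower in CD40LΔ5 by the labels (median -0.05) and all higher in MUT by the table (median 0.16), and none passed. Ccr1, found on myeloid cells, was the highest at 3.76 to 6.86 FPKM, and Ccr3, known from eosinophils, reached 4.04 FPKM in WT replicate 1. Ccr2, a monocyte receptor, had the smallest p of the 5 by the labels (log2 difference -0.30; limma adjusted p = 0.999993).

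**Figure D4:**
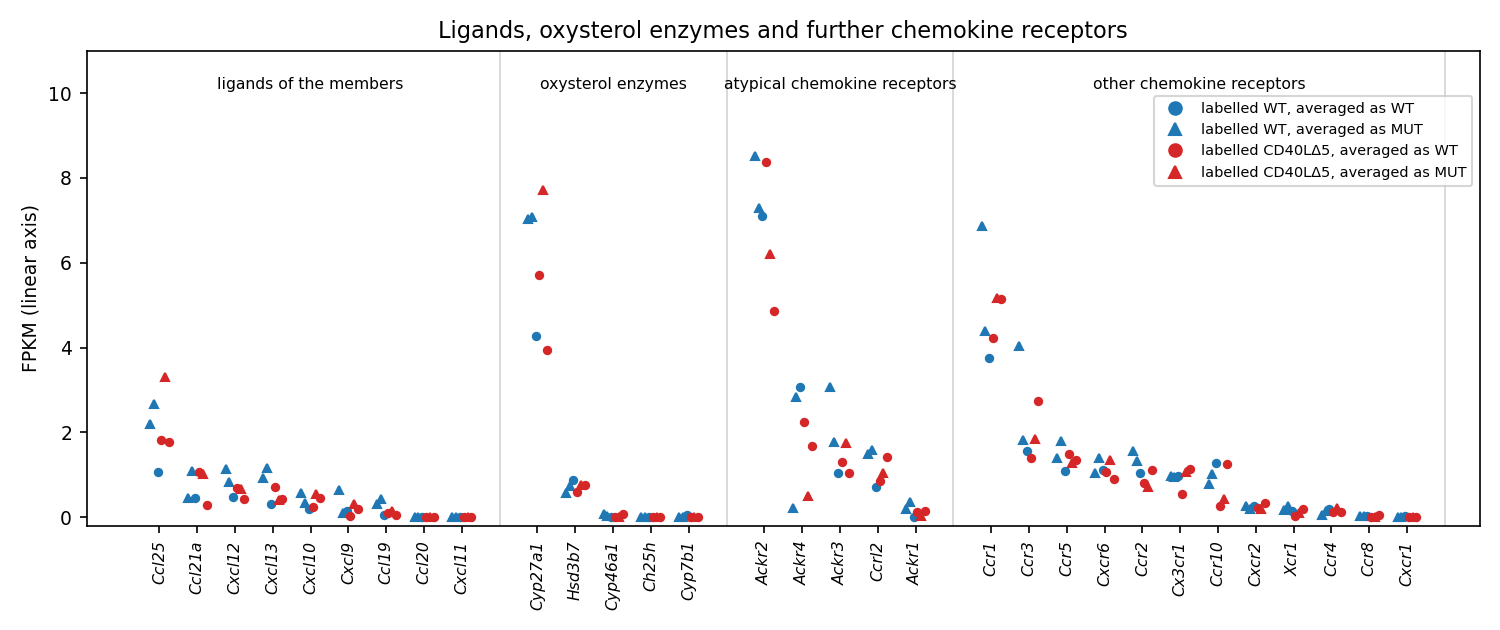
FPKM on a linear axis for ligands, oxysterol enzymes, atypical receptors and further chemokine receptors, with 1 point per library, coloured by label and shaped by the group in the table of means. All stay under 9 FPKM, with Ackr2 (up to 8.51 FPKM), Cyp27a1 (up to 7.73 FPKM) and Ccr1 (up to 6.86 FPKM) highest.

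Genes that pass the receptors' signal on ranged from 1.33 FPKM (Adrbk2) to 1314 FPKM (Coro1a). All 18 of the list were tested and none passed in either comparison, 9 higher and 9 lower by the labels (median log2 difference -0.00) and 8 higher and 10 lower by the table (median -0.01). Gnai2, the main inhibitory G protein subunit below chemokine receptors, was at 327 to 383 FPKM, and Adrbk1 (Grk2), a kinase that desensitizes them, at 206 to 241 FPKM. By the table the smallest p values were those of Adrbk2 (Grk3), the kinase tied to CXCR4 desensitization (2.55 ± 0.123 against 1.60 ± 0.256 FPKM), Pik3cg, the lipid kinase p110γ (17.2 ± 0.459 against 22.0 ± 2.77 FPKM), and Arrb2, β-arrestin 2 (32.3 ± 1.28 against 26.1 ± 2.92 FPKM). These are means ± SD with n = 3, and the limma adjusted p were 0.343, 0.349 and 0.352. By the labels these 3 genes had log2 differences of -0.08, 0.09 and -0.10. The smallest p by the labels were those of Gnb2, Dock2, the exchange factor that activates Rac in migrating lymphocytes, and Elmo1, with log2 differences of -0.08, 0.09 and 0.08.

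Of 10 transcription factors tied to these receptors all were tested and none passed, with 7 higher by the labels and 4 higher by the table. Bcl6, the regulator of the germinal centre that represses Gpr183, had the smallest p by the table (24.9 ± 3.13 against 34.9 ± 7.95 FPKM; SD, n = 3; limma adjusted p = 0.367), and by the labels its log2 difference was -0.08. Its groups overlapped, and all 10 germinal centre markers were lower in MUT as well (summed level 33.3 to 143 against 104 to 192 FPKM), and their part in the Bcl6 values was not tested. Nfkb2 and Relb, the subunits of the non-canonical NF-κB pathway, followed by the table with log2 differences of 0.24 and 0.14, against -0.04 and 0.01 by the labels. By the labels Pou2f2, Foxo1 and Hif1a had the smallest p, with log2 differences of 0.13, 0.11 and 0.06. Foxo1, which sustains Cxcr4 in the dark zone, was at 29.6 to 39.8 FPKM, and Tbx21 (T-bet), a driver of Cxcr3, at 2.52 to 3.72 FPKM.

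Among 10020 of the tested genes, without immunoglobulin segments and predicted genes, those with the pattern over the 6 libraries nearest to each of the 3 most variable tested receptors were found by the root mean square difference of centred log2(FPKM + 1) values. For Cxcr4 they were Ddit4, the stress-induced inhibitor of mTORC1 (0.091), Pygm, a glycogen phosphorylase (0.124), and Il5ra, the interleukin 5 receptor chain (0.125). Ddit4 measured 53.6, 49.6 and 50.6 FPKM in WT replicates 1 to 3 and 63.4, 80.9 and 63.4 FPKM in CD40LΔ5 replicates 1 to 3, with its peak in the same library as Cxcr4. For Ccr7 they were Lamp3 (0.043), Bnip3 (0.049) and Faim3, the Fc receptor of IgM (0.054). For Cxcr3 they were the histone gene Hist1h4n (0.108), Edem3, which serves degradation of misfolded glycoproteins (0.114), and Srprb, a subunit of the receptor of the signal recognition particle (0.118). Edem3 measured 11.6, 13.0 and 15.5 FPKM in WT replicates 1 to 3 and 14.2, 10.8 and 17.2 FPKM in CD40LΔ5 replicates 1 to 3. Among so many genes over 6 libraries some lie near any pattern, and these are given as a description.

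Cxcr4 lies on the part of chromosome 1 that holds Map3k19, which passed by the table. Of the 10 tested genes within 1 Mb of Cxcr4, Map3k19, 748 kb away, was the 1 that passed (log2 difference 1.70; limma adjusted p = 0.0293), and Tmem163, 909 kb away, was lower in MUT without overlap (limma adjusted p = 0.0677). Map3k19 measured 2.01, 2.34 and 0.0274 FPKM in WT replicates 1 to 3 and 0.0371, 2.89 and 0.0633 FPKM in CD40LΔ5 replicates 1 to 3. It was thus near 0 in the libraries averaged as WT, where the log2(FPKM + 1) scale understates the change. By the labels the log2 differences of Map3k19 and Tmem163 were -0.42 and 0.23 (limma adjusted p = 0.999993 for both). By the table sets 3 of the 10 did not overlap, as did 16.9% of all tested genes. Near Cxcr5 11 of 30 did not overlap, among them the T cell markers Cd3d, Cd3e and Cd3g, all higher in MUT. Near Ccr7, Ccr6 and Gpr183 the counts were 3 of 23, 2 of 8 and 0 of 10. Those near Cxcr3 and Ccr9 were 3 of 17 and 2 of 20. Mcm6 and Dars, the nearest of the 10 genes at 229 and 171 kb, lie between Map3k19 and Cxcr4. They had log2 differences of -0.22 and 0.14 by the table, Dars without overlap, and neither passed. Within 1 Mb of the other 6 receptors no gene passed in either comparison.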

How the data were processed

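RNA of splenic B cells was sequenced in 6 libraries. Per the labels, the TruSeq RNA kit, an unstranded one, was used on 1 µg of RNA. CASAVA 1.8.2, STAR and DESeq2 and the build mm9 are listed in the submitters' processing notes, without roles. How genes were counted and filtered is not given there. The authors deposited FPKM per gene and library, with gene lengths, and FPKM means per group. Coordinates are those of the files, and 24919 of 34490 identifiers shared with GENCODE for GRCm38, 3 of the 7 receptors among them, have the same start and end there. They were taken as GRCm38. No mm9 annotation was compared. FPKM times length, divided by each library's smallest such value above 0, was whole for 100% of values (tolerance 0.01 reads), and read numbers are these.

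Tests used limma 3.58.1 in R 4.3.3 (lmFit, eBayes with a trend, two-sided) on log2(FPKM + 1) computed from the deposited values, over 11252 genes whose mean reached 1 FPKM, adjusted after Benjamini and Hochberg, and called at 0.05. Differences on this scale understate changes of low genes. Ccr9, under that level, had an exact permutation test. The fit was also run on simulated data with known changes, in which the noise of each gene was drawn separately. That run does not show how the fit handles shifts that many genes share. The genes and lists were chosen with earlier results of these data known. The lists hold ligands, oxysterol enzymes, atypical and further chemokine receptors, signalling genes, transcription factors and cell markers, older symbols were matched (Emr1, Adrbk1, Adrbk2, Igj), and Ahsp had no match. Conventional dendritic cell markers (2 of 6 tested) summed to 4.08 to 7.33 FPKM, neutrophil markers (6 of 7 tested) to 42.2 to 546 FPKM and erythroid markers (5 of 5 found) to 135 to 517 FPKM. Named genes are the 7 receptors, up to 3 genes of smallest p in each pathway list and comparison, and the 3 nearest in pattern to each tested receptor that spans at least 0.5 on the log2 scale. Genes named beyond this, such as markers, neighbours on the chromosome and genes given for their level, were chosen after their values were seen. Alternatives changed the pseudocount, filter, scaling or variance setting, or used voom, a replicate block and leaving out each library.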

Additional observations from a re-analysis of the deposited data

How the results depend on the processing

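No receptor passed under any of the 189 alternatives, where the smallest limma adjusted p was 0.208 (Ccr7 by the table without WT replicate 2). Ccr9 was in the fit only with no filter or with a filter at a mean of 0.1 FPKM. Under the other settings it had an exact permutation test without an adjusted p, so it could not pass there. Of the 189 alternatives, 176 kept the direction and 13 turned, all 13 on leaving out 1 library. With 1 library left out, the log2 difference by the labels ran from -0.081 to 0.12 for Cxcr5 (turned without WT replicate 2 or CD40LΔ5 replicate 1), -0.041 to 0.24 for Ccr7 (WT replicate 2 or CD40LΔ5 replicate 2), -0.046 to 0.32 for Cxcr3 (CD40LΔ5 replicate 3) and -0.10 to 0.071 for Ccr9 (WT replicate 3 or CD40LΔ5 replicate 2). By the table it ran from -0.36 to 0.036 for Cxcr4 (WT replicate 2), -0.090 to 0.11 for Cxcr5 (WT replicate 2 or 3 or CD40LΔ5 replicate 1) and -0.084 to 0.052 for Ccr6 (WT replicate 2 or CD40LΔ5 replicate 1). Ranges that kept their direction were 0.049 to 0.17 for Ccr6 and -0.17 to -0.053 for Gpr183 by the labels, and 0.063 to 0.34 for Ccr7, -0.17 to -0.041 for Gpr183 and 0.13 to 0.24 for Ccr9 by the table. By the labels 0 genes passed under every alternative run. By the table the 3 genes (2 higher, 1 lower) became 5 with a pseudocount of 0.1, 1 with no filter, 6 with median-ratio scaling (3 higher, 3 lower), 4 without immunoglobulin genes in the total (2 higher, 2 lower), 1 with voom on the recovered reads, and 1 to 16 with 1 library left out: 13 without WT replicate 2 (1 higher, 12 lower), 16 without CD40LΔ5 replicate 1 (4 higher, 12 lower) and 1 without CD40LΔ5 replicate 2 (lower). The cause was not tested.

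With the replicate number as a block, 0 genes passed by the labels, and Cxcr4 had a log2 difference of 0.46 (limma adjusted p = 0.999994). Deviations of same-numbered libraries correlated at -0.38, 0.06 and 0.38 for numbers 1, 2 and 3, and not every library correlated best with its own number, so the numbers are not taken as pairs. No paired analysis was possible for the table sets because the sets share 1 replicate number. Depth limits Ccr9 and the ligands, with 45 to 78 reads per library for Ccr9.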

Other observations

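Ackr4, a scavenger of CCL19, CCL21, CCL20 and CCL25 that is known from germinal centre B cells, measured 0.218, 2.83 and 3.06 FPKM in WT replicates 1 to 3 and 2.24, 0.492 and 1.68 FPKM in CD40LΔ5 replicates 1 to 3. It was lowest in WT replicate 1 and CD40LΔ5 replicate 2, the libraries with the lowest summed level of germinal centre genes (33.3 and 53.2 FPKM) and the highest Ccr7 (90.6 and 87.1 FPKM). By the table its log2 difference was -0.78 ± 0.42 (SE; limma adjusted p = 0.447) and by the labels -0.18 ± 0.52. Of the 4 atypical receptors tested it was the 1 with a lower mean in MUT.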
